A study of Rattus norvegicus with 56 samples.

Results

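The Nduf genes encode the nuclear subunits and several assembly factors of NADH:ubiquinone oxidoreductase, respiratory complex I. They were taken as every rat gene whose RefSeq symbol starts with Nduf and whose transcript a probe of the array is annotated with. The array held 52 such probes, of 45598 in all, for 42 genes, of 16575 genes with a symbol. Each gene was read through its brightest probe, and all 42 lay well above background on all 55 arrays used. No probe matched Ndufs6, Ndufa3, Ndufa8, Ndufc1, Ndufb1 or Ndufaf2.

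RNA came from primary hippocampal neuron cultures of E18 Sprague-Dawley rats, hybridised 1 culture sample per single-colour Agilent array. Dishes stood on an inverted magnetic coil and received repetitive transcranial magnetic stimulation (rTMS) at 1 Hz, as intermittent theta burst stimulation (iTBS) or as sham, in which the coil was kept away from the plate. After stimulation ended RNA was isolated at once (0 h) or 2, 8, 24 or 48 h later, and untreated control cultures were taken at 0 h. A group held 2 to 4 arrays: 4 sham arrays at 0 and 2 h and 3 at 8, 24 and 48 h, 3, 2, 4, 3 and 4 arrays of 1 Hz and 4, 4, 3, 3 and 4 of iTBS at the same times, and 4 of untreated cultures. The comparison with sham asks which transcripts the stimulation changed. All groups share the same culture system, and no group carries a genetic change. Another array, 1 Hz at 2 h replicate 2, failed the scanner software's grid check and was left out. The number that closes each sample's description falls into blocks, here called series: A (numbers 1 to 18, 11 arrays), B (19 to 36, 12 arrays), C (37 to 54, 17 arrays) and D (numbers marked with D, 15 arrays). The labels do not say what separates these blocks. Series A lay on slides 1 and 2, B on 3 and 4 and C on 5 to 7, while D was spread over all 7 slides.

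Levels are log2 signals after each array was brought to the same mean, 0, and the same spread, so a level is a distance from the array's average probe. Levels of different genes come from different probes and are not set against each other. Between 66.1% and 81.8% of the probes of an array were well above background. All 12 neuronal markers, among them Map2, Rbfox3 and Syn1, were well above background on all 55 arrays, as were the 10 oligodendrocyte lineage markers, and 9 of 10 astrocyte markers. Among the 10 microglia markers C1qb, Cx3cr1 and Itgam were, while Csf1r was so on 7 arrays, and of the endothelial and mural markers Cldn5 and Rgs5 were so on 6 and 12. In such bulk cultures, fewer cells of a type and less RNA per cell cannot be told apart.

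Complex I takes electrons from NADH, passes them to ubiquinone and pumps protons across the inner mitochondrial membrane, and it is the entry point for most of the electrons that drive ATP production in neurons. Its peripheral arm has the N module, where NADH is oxidised on flavin and iron-sulphur clusters, and the Q module, where ubiquinone is reduced. Its membrane arm has a proximal and a distal pumping part, whose core subunits are encoded in mitochondrial DNA and whose many accessory subunits are nuclear. Assembly factors help to put these parts together and are not in the finished enzyme. The 42 genes comprised 9 of the N module, 6 of the Q module, 6 of the proximal and 11 of the distal membrane arm, 7 assembly factors, Ndufa4 and Ndufa4l2, which keep the name but encode complex IV subunits, and Ndufa10l1, a copy of Ndufa10. The probes of Ndufa10 and Ndufa10l1 may share signal, so both are uncertain.

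The transcripts were abundant. In mean level 35 of the 42 lay at or above the 80th percentile of the 35694 probes tested, and the median member was at percentile 95.3. Mean levels ran from -0.92 for Ndufa4l2 to 9.73 for Ndufb8, a distal membrane arm subunit. Since bright probes as a class were higher on some arrays than on others, each change is also given against the 500 tested probes nearest in mean level that belong to no Nduf gene, by subtracting their median change.

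Promoters of 38 members were held by RefSeq (build GRCr8) as windows from upstream of each annotated start to just after it. Those of 4 genes are shown since the results turn on them: Ndufb8 and Ndufaf8 differed most between series, and Ndufs1 and Ndufaf1 rose over time. Capitals mark matches, on either strand, to 1 of the motifs given after them.
Ndufb8: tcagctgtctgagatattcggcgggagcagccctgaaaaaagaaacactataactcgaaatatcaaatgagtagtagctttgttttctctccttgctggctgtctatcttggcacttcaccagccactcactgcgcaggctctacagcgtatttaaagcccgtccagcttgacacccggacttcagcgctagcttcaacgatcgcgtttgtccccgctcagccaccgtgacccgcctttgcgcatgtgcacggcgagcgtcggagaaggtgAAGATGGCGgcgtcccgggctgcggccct
Ndufaf8: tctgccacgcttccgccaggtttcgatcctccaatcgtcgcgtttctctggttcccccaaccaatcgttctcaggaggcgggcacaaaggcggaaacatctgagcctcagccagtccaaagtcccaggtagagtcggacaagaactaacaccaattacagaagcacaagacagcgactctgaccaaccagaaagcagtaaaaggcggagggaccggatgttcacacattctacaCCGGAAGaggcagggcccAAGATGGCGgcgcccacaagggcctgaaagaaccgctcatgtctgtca
Ndufs1: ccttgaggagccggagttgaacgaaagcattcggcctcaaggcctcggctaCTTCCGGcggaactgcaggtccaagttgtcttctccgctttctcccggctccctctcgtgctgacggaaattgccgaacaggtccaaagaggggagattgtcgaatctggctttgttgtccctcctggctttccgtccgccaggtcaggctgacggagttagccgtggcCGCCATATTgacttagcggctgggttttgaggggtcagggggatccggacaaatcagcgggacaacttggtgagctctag
Ndufaf1: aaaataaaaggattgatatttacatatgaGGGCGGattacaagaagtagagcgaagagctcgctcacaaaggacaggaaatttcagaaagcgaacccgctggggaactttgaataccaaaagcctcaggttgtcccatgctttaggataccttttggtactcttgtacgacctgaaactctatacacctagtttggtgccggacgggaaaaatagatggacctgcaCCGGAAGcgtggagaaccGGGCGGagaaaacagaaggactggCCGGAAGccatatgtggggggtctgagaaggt

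The Ndufb8 window is chr1:253362887-253363186 on the minus strand, Ndufaf8 chr10:105879658-105879957 on the plus strand, Ndufs1 chr9:72073556-72073855 and Ndufaf1 chr3:127103971-127104270, both on the minus strand. All 4 are printed 5′ to 3′ along the gene. The letters searched, each on both strands and counted apart from the others even where they overlap, were GCGCANGCG for nuclear respiratory factor 1, CCGGAAG for ETS factors such as GABP, AANATGGCG for YY1, GGGCGG for SP and KLF factors and TCAAGGTCA for oestrogen-related receptors. The nuclear respiratory factor 1 letters stood in 26.3% of the 38 member promoters and 5.8% of all 33469 promoters of the table. The ETS letters stood in 23.7% against 8.75%, the YY1 letters in 26.3% against 3.01% and the GGGCGG box in 42.1% against 33.1%. No member promoter held the receptor motif, which 0.433% of all promoters held, and 9 member promoters held none of the motifs. Among the members lower in series D the shares were no higher than among the rest: 20% of 25 against 38.5% of 13 for nuclear respiratory factor 1, 20% against 30.8% for ETS, 24% against 30.8% for YY1 and 36% against 53.8% for GGGCGG. A match is a description of these letters and not a bound site.

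**Figure D1:**
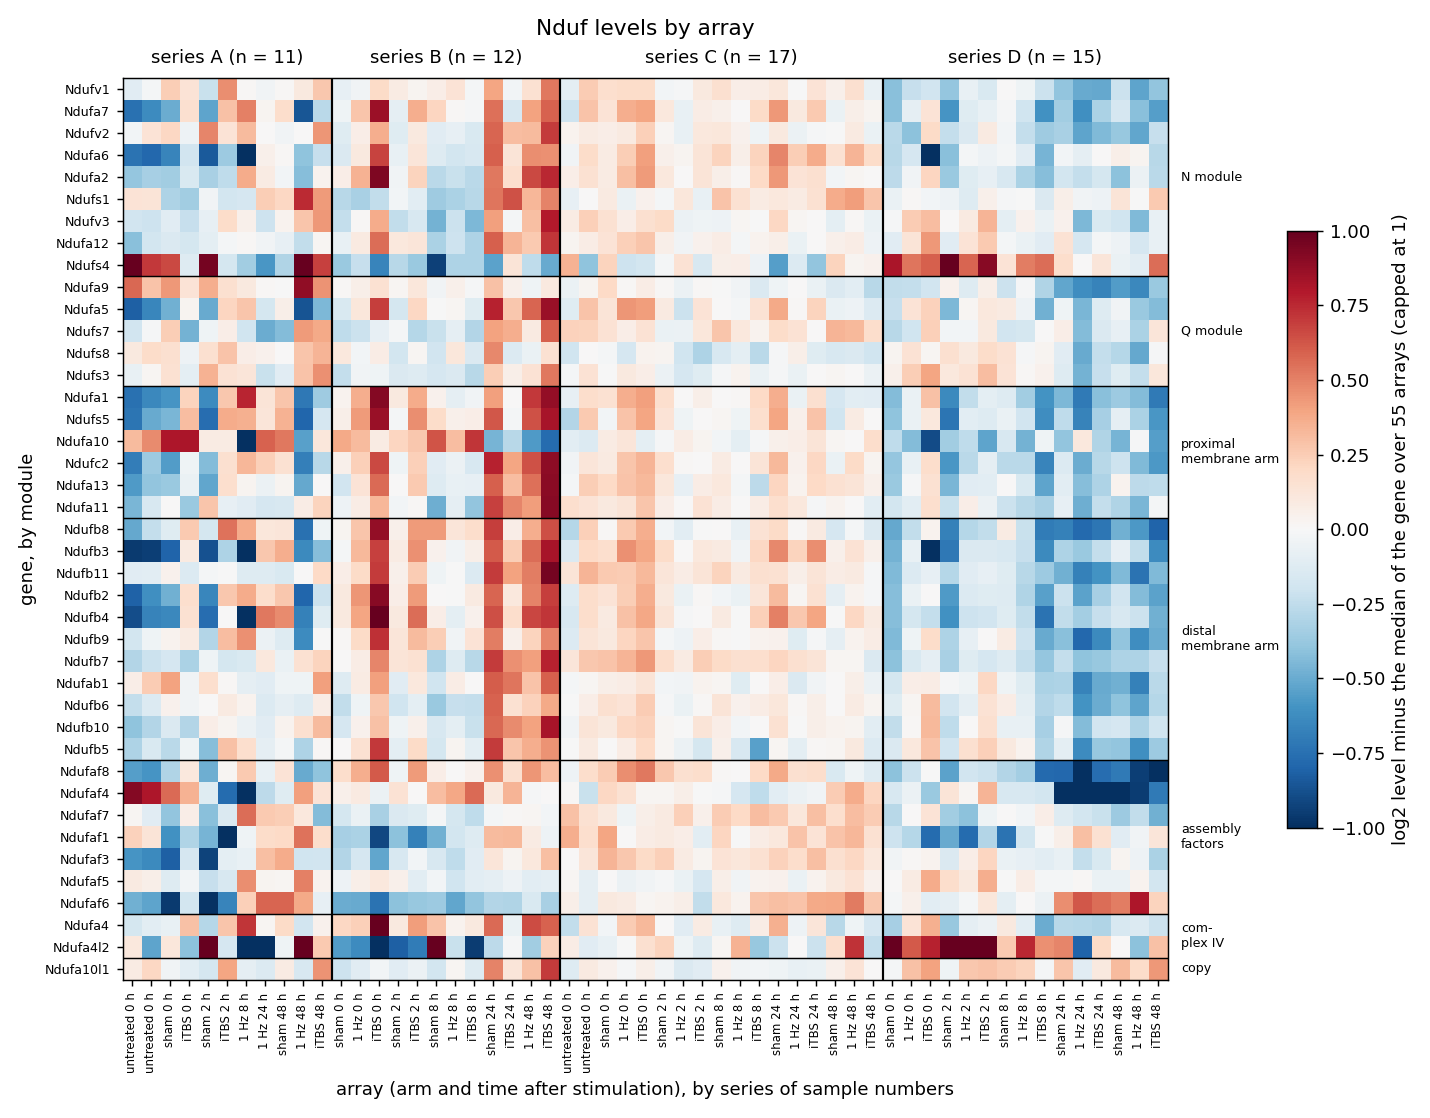
Level of each of 41 Nduf genes (vertical axis, by module) on each of the 55 arrays (horizontal axis, by series) as the log2 difference from the gene's median, with the colours ending at 1 in either direction. The columns of series D hold mostly lower values in the membrane arm genes, and single dark cells mark Ndufa6 and Ndufb3 on 2 arrays of slide 2.

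Arrays differed in the level of the whole group of genes. The median over the 42 genes of the difference from each gene's own median ran from -0.46 to 0.59 (SD 0.197, n = 55), while that of their same-brightness probes ran from -0.29 to 0.33. After the latter was taken off, -0.17 to 0.35 remained (SD 0.0996). It was below 0 on 15 of 15 arrays of series D (median -0.08) and on 1 of 17 of series C (median 0.04), 7 of 11 of series A (median -0.03) and 4 of 12 of series B (median 0.05).

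**Figure D2:**
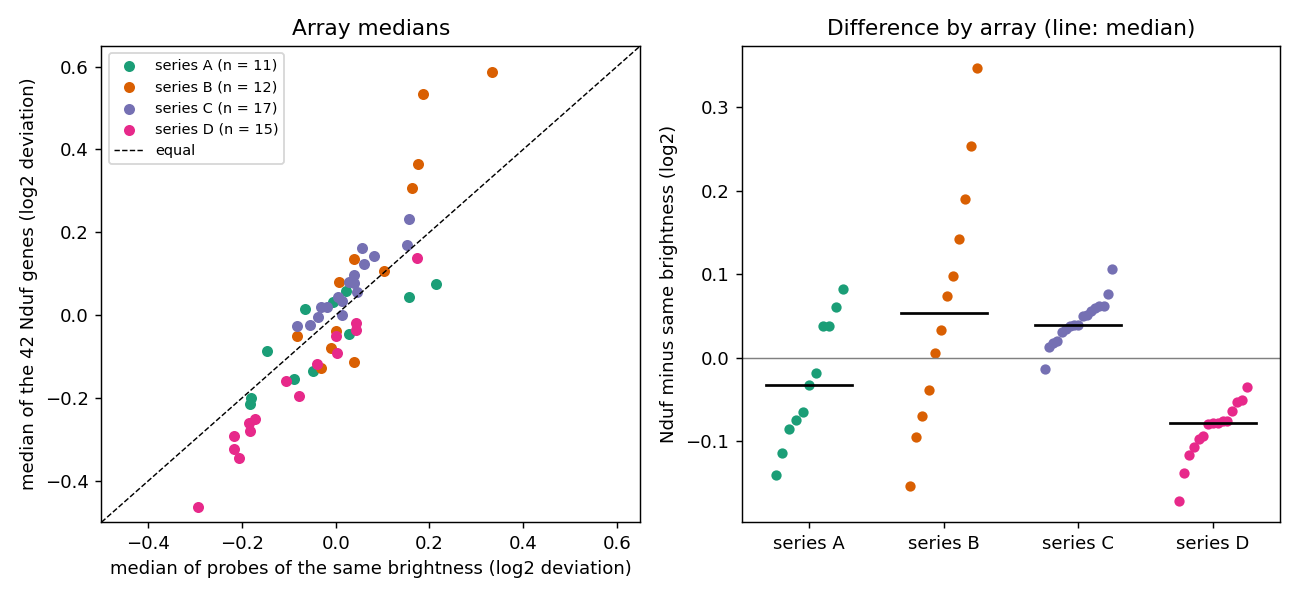
Median difference of the 42 Nduf genes from their gene medians on each array against that of probes of the same brightness (log2), and the difference between both by series, with 1 point an array. The 15 arrays of series D all lie below 0 in the difference, and arrays high or low in the Nduf genes are mostly high or low in the same-brightness probes too.

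Single arrays also stood apart. On 1 Hz at 8 h replicate 1 (series A) and iTBS at 0 h replicate 4 (series D), both on slide 2, the software marked 2.22% and 2.05% of the spots as outliers, against a median of 0.513% over the 55 arrays. On the first, 6 members lay more than 1 below the gene's median level. On the second 2 members did. These 2 are called the outlying arrays of slide 2 below. The levels of Ndufa10 and Ndufaf4, the count for series D and the late changes are given with and without them. Other arrays of series A on slide 2 also deviated. On iTBS at 2 h replicate 3, 1.82% of the spots were marked and 1 member lay so low. On 1 Hz at 48 h replicate 1 no member did, but the 75th percentile of its signals was 18416, against a median of 4906. Its correlation with the mean of the other arrays, 0.971, was the lowest of the 55.

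No Nduf gene passed the threshold in any comparison of stimulated or untreated cultures with sham (limma, adjusted p under 0.05 over 35694 probes). This fit held the groups without series, so differences between series added to its error. With series as a block the count was 0 as well. For 1 Hz 0 of 42 were called at each of the 5 times, where, in order of time, 0%, 0.00560%, 0.00280%, 0% and 0% of all probes were. For iTBS 0 of 42 were called at each time, against 0%, 0%, 0.00560%, 0% and 0% of all probes. For untreated cultures against sham at 0 h it was 0 of 42 against 0.00280%. The smallest adjusted p of any member in these comparisons rounded to 1.00. Nor was any member called for the average over the 5 times, where 0% of probes were called for either protocol, or by the F test over all stimulated groups against sham (0 of 42, background 0.00280%). The F tests of whether the difference from sham varied over the times called 0 of 42 for 1 Hz and for iTBS, with 0% of all probes, and that of iTBS against 1 Hz 0 of 42, with 0.00280%.

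Before adjustment, p lay under 0.05 for 0, 0, 0, 5 and 0 members with 1 Hz, from 0 h to 48 h, and for 0.899%, 1.11%, 1.32%, 2.29% and 1.47% of all probes. With iTBS it did so for 6, 0, 0, 0 and 1 members and 3.94%, 2.12%, 0.883%, 0.552% and 1.78% of all probes. It did so for no member in untreated cultures (2.43% of probes), in the averages over times of 1 Hz (0.692%) and iTBS (0.667%), in the F test over stimulated groups (0.818%), in those of a difference varying over times (0.868% for 1 Hz and 1.48% for iTBS) or in that of iTBS against 1 Hz (0.838%). Of these, only 1 Hz at 24 h and iTBS at 0 h had more than 1 member under 0.05.

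As a group, the 42 genes shifted with their brightness. Median changes against sham with 1 Hz were 0.16, 0.06, 0.01, -0.32 and 0.04 from 0 h to 48 h, and 0.05, 0.01, 0.04, -0.07 and 0.06 after the same-brightness median was taken off each gene. With iTBS they were 0.19, 0.14, -0.10, -0.16 and 0.13, and 0.03, 0.00, 0.02, -0.06 and 0.06 after it. Untreated cultures stood at -0.00 and 0.02. The median of all probes tested stayed between -0.05 and 0.05 in these comparisons. The largest shift, that of 1 Hz at 24 h, became -0.06 when a smooth curve of brightness was removed from every array. With series as a block and the brightness left in, it was -0.23. The sham arrays at 24 h came from series B, C and D and those of 1 Hz from A, C and D. The array of series B had the highest Nduf median of the 6, 7.92, against 7.40 and 7.14 in the other sham arrays and 7.30, 7.35 and 6.87 in the 1 Hz arrays. Without that sham array, replicate 1, the 24 h shift was -0.13 with 1 Hz and 0.01 with iTBS, and without sham replicate 3, of series D, it was -0.51 and -0.38. Single arrays moved other medians as well: that of iTBS at 48 h was -0.00115 without iTBS replicate 2, that of iTBS at 8 h -0.00174 without iTBS replicate 3, and that of 1 Hz at 48 h -0.04 without 1 Hz replicate 2.

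**Figure D3:**
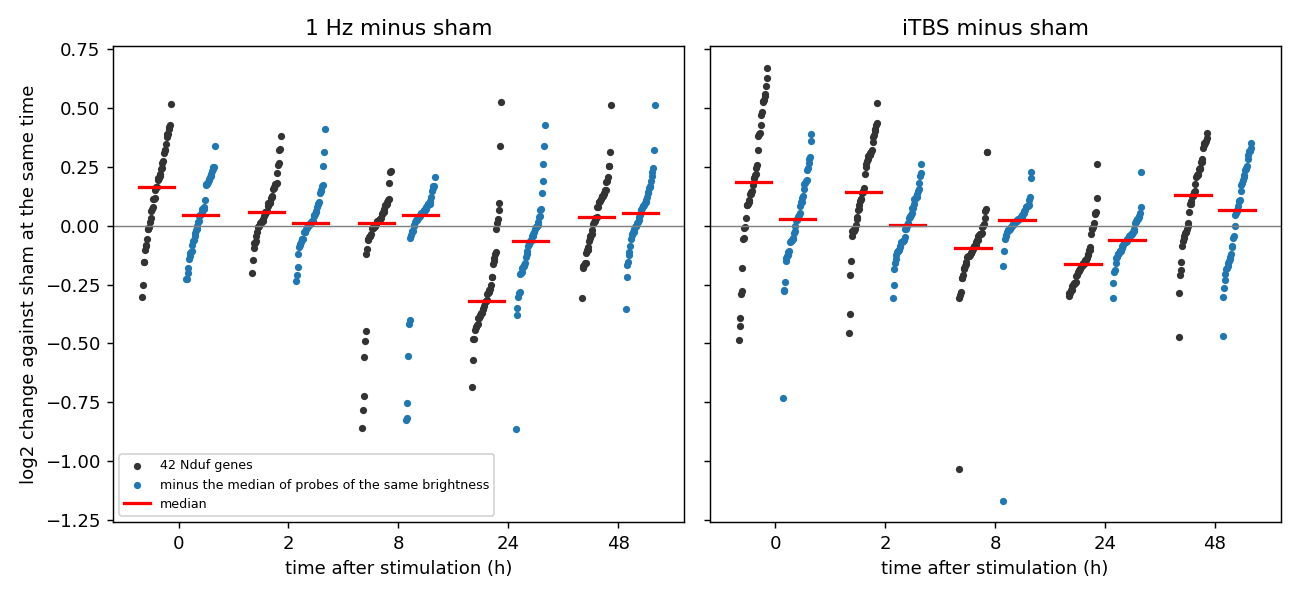
Change against sham of each of the 42 Nduf genes (log2, 1 point a gene) in each protocol and time, as measured and after the median change of the 500 probes nearest in level was taken off. The points of 1 Hz at 24 h and iTBS at 0 h are shifted as measured and less so after the subtraction. After it 11 of 42 points lie above 0 with 1 Hz at 24 h and 24 with iTBS at 0 h. No point passes the test.

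In the N module, which holds the flavin site, the gene with the smallest p at 48 h with 1 Hz was Ndufs4, an accessory subunit of the peripheral arm whose loss causes Leigh-like disease. Its level was 3.86, 1.41, 1.70 and 1.56 in the 1 Hz arrays and 1.37, 1.89 and 1.60 in sham. The groups overlapped apart from 1 array of series A, replicate 1, whose high signal is described above. The change was 0.51 ± 0.44 (SE; unadjusted p = 0.251). Without that array it was -0.06.

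The Q module genes Ndufs7, Ndufs8 and Ndufs3 carry iron-sulphur clusters or scaffold them on the way to ubiquinone. Ndufs7 stood at 6.01, 6.65 and 6.07 with 1 Hz at 24 h against 6.90, 6.69 and 6.57 in sham, with overlap, a change of -0.48 ± 0.21 (unadjusted p = 0.0274). Ndufs8 stood at 4.81, 4.82 and 4.71 with iTBS at 24 h against 5.42, 4.94 and 4.84 in sham. Here the groups did not overlap, but the difference of -0.28 ± 0.18 had an unadjusted p of 0.119, and it was -0.11 without sham replicate 1. Ndufs3 with iTBS at 48 h was 7.36, 7.43, 6.85 and 7.03, and in sham 6.80, 6.93 and 6.79, higher by 0.33 ± 0.16 with overlapping groups (unadjusted p = 0.0444). Ndufa5, an accessory subunit at the base of the peripheral arm, was 9.05, 9.38 and 9.07 with 1 Hz at 0 h and 8.78, 8.46, 9.07 and 8.70 in sham (0.41 ± 0.27, unadjusted p = 0.128), again with overlap.

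Of the membrane arm, Ndufa10 had the smallest p with 1 Hz at 8 h. It stood at 0.31, 2.66, 2.26 and 1.89, and in sham at 2.99, 2.33 and 2.20. The first of these arrays was an outlying array of slide 2, and the change went from -0.72 ± 0.36 (unadjusted p = 0.0539) to -0.23 without it. Ndufs5, an accessory subunit of the intermembrane side, was 9.30, 8.84, 9.20 and 8.70 with iTBS at 2 h and 8.81, 8.97, 8.07 and 8.10 in sham, with overlap (0.52 ± 0.28, unadjusted p = 0.0670).

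Among the complex IV genes, Ndufa4 was higher on every iTBS array at 0 h (9.94, 9.23, 9.19 and 9.26) than on every sham array (9.11, 8.83, 8.88 and 8.57). This was the smallest unadjusted p of a member against sham, 0.0106, with a change of 0.56 ± 0.21. Its same-brightness probes were higher too, by 0.37, which left 0.19. Without iTBS replicate 1 the change of Ndufa4 was 0.38, and over the other settings it ran from 0.07 to 0.61. Replicate 4 of iTBS was an outlying array of slide 2. The other 5 members with p under 0.05 in that comparison were Ndufa1 (0.67), Ndufs5 (0.63), Ndufa7 (0.59), Ndufa5 (0.52) and Ndufa2 (0.47), all small accessory subunits. Ndufa4l2, known as a gene induced by low oxygen, was the dimmest member and scattered widely: -1.93, -1.36 and -0.52 with iTBS at 8 h and 0.97, -0.96 and -0.72 in sham (-1.03 ± 0.56, unadjusted p = 0.0734). Without sham replicate 1 the change was -0.43.

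Assembly factors led 2 further comparisons. Ndufaf6, which is needed for making an early membrane arm part, was 4.27 and 4.19 with 1 Hz at 2 h against 3.80, 4.25, 3.22 and 4.12 in sham (0.38 ± 0.30, unadjusted p = 0.214). Ndufaf1, a factor of the membrane arm assembly intermediate, was 0.72, 0.62, 0.85 and 0.66 in untreated cultures at 0 h and 0.16, -0.11, 0.89 and 0.28 in sham (0.41 ± 0.21, unadjusted p = 0.0605). In both the groups overlapped. The change of Ndufaf6 was 0.17 without sham replicate 3, and that of Ndufaf1 0.27 without sham replicate 2.

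Most Nduf genes differed between series, as did most probes of the array. In a fit with group and series, 37 of 42 genes (88.1%) differed between series, and 75.4% of all probes did. Series A, B and C shared no slide, so series and slide can be told apart there only through the D arrays. The strongest were Ndufaf8 (F = 34.2, adjusted p = 6.36e-10), Ndufb8 (F = 22.8, adjusted p = 7.02e-08) and Ndufb11 (F = 20.6, adjusted p = 2.10e-07). The weakest F values were those of Ndufv3 (0.352), Ndufs1 (1.02) and Ndufs3 (1.07), all of the peripheral arm.

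Series D was lower than the mean of A, B and C in 27 of 42 genes and higher in 4, where 24.2% of all probes were lower and 28.9% higher. The median change of the 42 was -0.29, that of all tested probes 0.03, and it was -0.17 relative to probes of the same brightness. With the curve of brightness removed from every array, 22 were lower and 6 higher (background 25.4% and 27.5%), with a median of -0.17. With slide as a fixed block, which compares arrays of 1 slide, 25 were lower (background 24.0%), and without both outlying arrays of slide 2 it was 26 (background 24.1%).

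The accessory subunits of the membrane arm moved together in this contrast. All 11 genes of the distal part were lower in series D, by 0.17 to 0.59 (median -0.40), and so were all 6 of the proximal part (median -0.41). Relative to probes of the same brightness the medians were -0.19 and -0.21. The distal subunit Ndufb8 was 8.98 to 9.86 in series D (median 9.26), against 9.04 to 10.32 (median 9.74) in A, 9.81 to 10.66 (10.10) in B and 9.50 to 10.14 (9.78) in C. Its ranges overlapped, yet within each of the 15 groups that held series D and another series it was lower in D (15 of 15), and the change was -0.59 ± 0.08 (adjusted p = 4.33e-08). Ndufb11, the X-linked distal subunit, was 7.29 to 7.94 (median 7.66) in D, with medians of 7.92, 8.25 and 8.16 in A, B and C, and was lower in 15 of 15 groups, with a change of -0.48 ± 0.07 in the fit (adjusted p = 3.42e-07). Ndufa1, a small proximal subunit, had medians of 8.24, 8.83, 8.66 and 8.18 in A to D and a change of -0.46 ± 0.10 (adjusted p = 1.64e-04), again lower in 15 of 15 groups. At the lower end of the distal part, Ndufb5 changed by -0.17 ± 0.07 (adjusted p = 0.0455), or -0.03 relative to its neighbours in brightness.

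**Figure D4:**
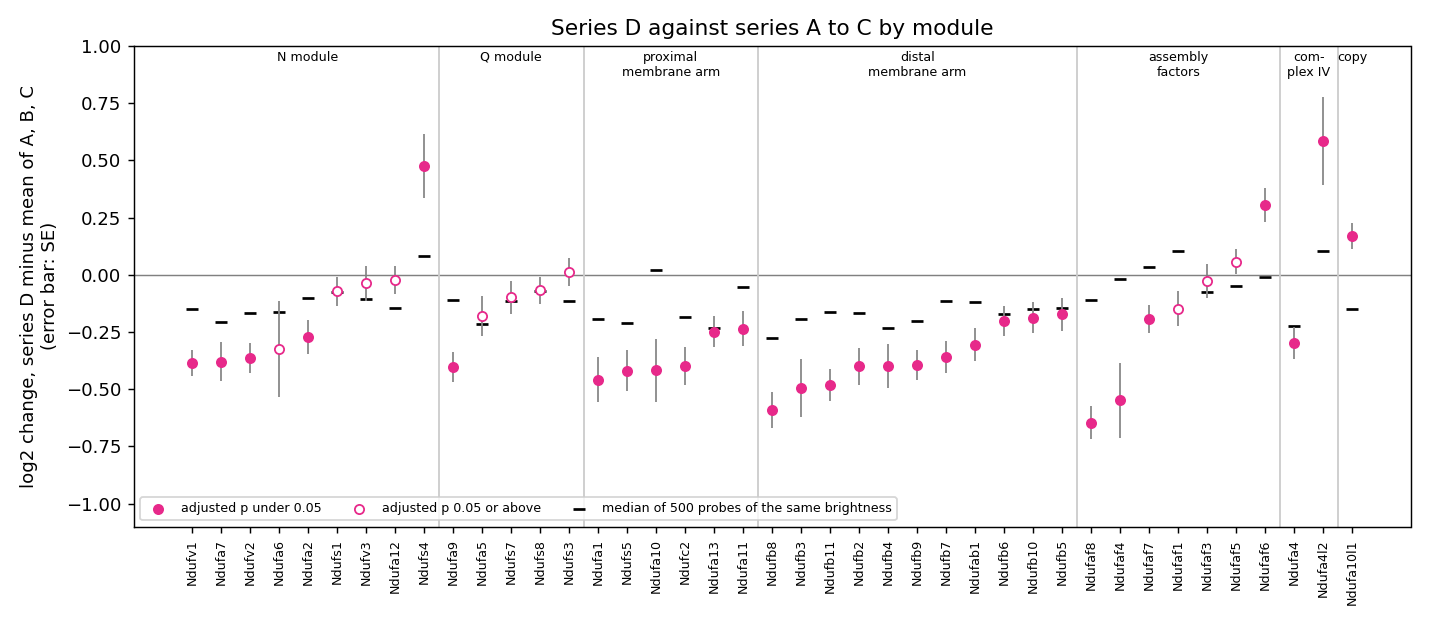
Change in series D against the mean of series A, B and C (log2, bars ± SE) for each of 41 Nduf genes by module, with a dash at the median change of the 500 probes nearest in level. Every gene of the proximal and distal membrane arm lies below 0 and most lie below their dash, while genes of the N and Q modules and the assembly factors lie on either side.

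The peripheral arm was mixed. Of the 9 N module genes 4 were lower in series D and 1 higher (median -0.27), and of the 6 Q module genes 2 were lower (median -0.14). Relative to probes of the same brightness the N module stood at -0.16, close to the membrane arm, and the Q module at 0.0081. Among the nuclear core subunits, which together bind flavin, iron-sulphur clusters and ubiquinone, lower ones were Ndufv1 (-0.39 ± 0.06, adjusted p = 2.76e-07), which binds NADH and flavin, and its partner Ndufv2 (-0.36 ± 0.07, adjusted p = 1.44e-05). Ndufv1 was 7.20 to 7.73 (median 7.49) in D and had medians of 7.74, 7.80 and 7.82 in A, B and C. Those that did not pass included Ndufs1, Ndufs3, Ndufs7 and Ndufs8: Ndufs1 changed by -0.07 ± 0.07, Ndufs3 by 0.01 ± 0.06, Ndufs7 by -0.10 ± 0.07 and Ndufs8 by -0.07 ± 0.06. Of these, Ndufs1 and Ndufs7 changed sign when the curve of brightness was removed (both 0.01), and Ndufs3 then passed the threshold at 0.14 (adjusted p = 0.0160). Ndufs4 was the N module gene that was higher, at 1.56 to 2.71 in D (median 2.20) against medians of 2.33 in A, 1.33 in B and 1.65 in C, a change of 0.47 ± 0.14 (adjusted p = 0.00418) that A did not share.

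Assembly factors went both ways. Ndufaf8, a partner of the assembly factor Ndufaf5, changed most of all 42 genes: 5.87 to 6.95 in D (median 6.42), 6.36 to 7.21 (6.65) in A, 6.91 to 7.56 (7.19) in B and 6.80 to 7.48 (7.12) in C. It was lower in D in 15 of 15 groups, by -0.65 ± 0.07 in the fit (adjusted p = 1.43e-09) and -0.53 relative to its neighbours. Ndufaf4 (-0.55 ± 0.16) and Ndufaf7 (-0.19 ± 0.06), a methyltransferase, were lower too. Ndufaf6 was higher in 14 of 15 groups, by 0.30 ± 0.07 (adjusted p = 6.20e-04), with medians of 4.02, 3.82, 4.30 and 4.26 in A to D. Ndufa10l1 was higher in 14 of 15 groups as well, by 0.17 ± 0.06 (adjusted p = 0.0115), and its second probe by 0.30 ± 0.06. Ndufa4l2 was the fourth higher gene, 0.59 ± 0.19 (adjusted p = 0.0102), though it was at -1.78 to 0.25 in D and at -2.48 to 0.97 in B, and it lost the call without the brightness trend (0.46, adjusted p = 0.0522), with quantile normalization (0.44, adjusted p = 0.0712) and with normexp correction (0.20, adjusted p = 0.0851). Second probes of Ndufa13, Ndufab1 and Ndufb4 were lower in D as the brightest ones were, with changes of -0.25, -0.71 and -0.42, and the third probe of Ndufb4 changed by -0.21. Not every dimmer probe passed: the second probe of Ndufaf7 changed by -0.07 (adjusted p = 0.377), and the dimmer probes of Ndufaf4 by -0.37 (adjusted p = 0.0160) and -0.27 (adjusted p = 0.102).

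Other transcripts also differed between series, some lists lower in D and some higher, and their part in the Nduf differences was not tested. Of 10 oligodendrocyte lineage markers 9 were lower in D (median -2.23), and their summed level was 7.23 to 9.09 in D against 9.61 to 10.94 in A, 10.08 to 11.43 in B and 10.40 to 11.33 in C. All 9 cell cycle genes were lower (median -1.94), with summed levels of 6.27 to 7.39 in D and 7.74 to 9.20 in the others. Of 12 neuronal markers 8 were higher in D (median 0.41; summed 10.31 to 11.33 in D and 9.98 to 11.42 in the others), and 7 of 9 endothelial, mural and fibroblast markers were (median 0.54; summed 8.14 to 9.0 in D and 4.93 to 6.84 in the others). Astrocyte markers went both ways, 3 higher and 5 lower of 10 (summed 10.38 to 11.45 in D and 10.63 to 12.59 in the others), as did those of microglia, 6 higher and 2 lower of 10 (6.65 to 7.66 and 6.32 to 7.61).

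The rest of the respiratory chain gave a like picture. Of 33 genes of complexes III, IV and ATP synthase 26 were lower in D and 0 higher (median -0.35, or -0.16 without the brightness trend), and of 6 genes of complex II and its assembly 5 were lower (median -0.18). Of 68 mitochondrial ribosomal protein genes 30 were lower and 4 higher (median -0.13), and of 13 markers of mitochondrial content, such as Cs and Vdac1, 7 and 2 (median -0.18). Of 14 regulators of nuclear mitochondrial genes, such as Nrf1, Gabpa and Ppargc1a, 6 were lower and 2 higher (median -0.10). Cytosolic ribosomal protein genes, which are brighter still, were lower in 55 of 70 (median -0.30), and in 19 of 70 without the brightness trend.

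Between series C and the mean of A and B, 5 Nduf genes were higher and 2 lower in C, against 20.3% and 19.8% of all probes. The count of higher genes depended on the processing: it was 13 at the 75th percentile (background 20.3%), 10 with quantile normalization (21.2%), 11 with normexp correction (19.7%), 8 without the brightness trend (22.2%) and 14 with slide as a fixed block (14.5%). With slide as a block, fixed or random, 0 were lower, for which the share of all probes is not given. Of the 5, 4 were assembly factors, Ndufaf6 (0.44 ± 0.08, adjusted p = 1.70e-05), Ndufaf3 (0.34, adjusted p = 4.61e-04), Ndufaf1 (0.30, adjusted p = 0.00273) and Ndufaf7 (0.24, adjusted p = 0.00294), and the other was Ndufs7. The second probe of Ndufaf7 was not called (0.11, adjusted p = 0.195). Dimmer probes went the other way for the assembly factor Ndufaf4, whose brightest probe was not called (-0.06, adjusted p = 0.816). They changed by -0.52 (adjusted p = 0.00199) and -0.64 (adjusted p = 4.94e-04). The 2 genes counted as lower, Ndufa9 (-0.21, adjusted p = 0.0111) and Ndufs8 (-0.19, adjusted p = 0.0144), belong to the Q module. Of 10 further complex I assembly factors without an Nduf name 5 were higher in C and 0 lower (median 0.23). Of the oligodendrocyte lineage markers 6 of 10 were higher in C (median 1.16), which was not tested for its part in this.

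Series A was lower than B in 18 of 42 genes and higher in 2, with 13.7% of all probes lower and 16.7% higher (median of the 42 genes -0.20). It was 8 of 11 in the distal and 4 of 6 in the proximal membrane arm. The lowest adjusted p was that of the distal subunit Ndufb4 (-0.74, adjusted p = 9.90e-05), at 7.54 to 9.64 (median 8.47) in A and 9.02 to 10.14 (median 9.40) in B. The value of 7.54 was that of 1 Hz at 8 h replicate 1, an outlying array of slide 2. Dimmer probes of Ndufb4 changed by less, -0.43 (adjusted p = 0.00590) and -0.22 (adjusted p = 0.149), and the last was not called. Higher in A were Ndufs4 (0.82, adjusted p = 0.00212) and Ndufa9 (0.26, adjusted p = 0.0331). Brightness bore on this contrast: the median was -0.06 relative to neighbours, and without the brightness trend 10 were lower and 4 higher (background 15.5% and 13.3%; median -0.04). Series A and B shared no slide, and with slide as a fixed block, where their difference rests on the few D arrays of those slides, 0 were called in either direction (background 0.331% lower and 0.109% higher). Cytosolic ribosomal protein genes were lower in A in 66 of 70 and complexes III, IV and ATP synthase in 18 of 33, while 6 of 12 neuronal markers were higher and 5 of 10 oligodendrocyte lineage markers lower. What these shared with the Nduf difference was not tested.

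Over time, few Nduf genes changed. In the fit with group and series, averaged over sham, 1 Hz and iTBS, 4 of 42 (9.52%) differed between the times, against 27% of all probes: Ndufaf6 (adjusted p = 3.82e-05), Ndufaf1 (adjusted p = 7.22e-05), Ndufs1 (adjusted p = 4.50e-04) and Ndufaf8 (adjusted p = 0.0372). Without the brightness trend it was 10 of 42, against 28.4%. Within sham cultures the F test of limma over the times, in the fit of groups without series, called 0 of 42 (background 0.0784%). Before adjustment Ndufaf6 alone of the members passed the threshold of 0.05 in it, as did 5.81% of probes. The mix of series among sham arrays differed between times, and differences between series added to the error of that test. Its count therefore cannot be set against the 4 of 42 above, and it does not show that sham cultures stayed unchanged.

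Against 0 h, 0 members were called at 2 h (background 0%; unadjusted 0 members and 2.86% of probes). None was called at 8 h, with 1.69% of all probes higher and 0.684% lower, although 6 members and 13.3% of probes had an unadjusted p under 0.05. At 24 h 3 were higher and 0 lower (background 8.58% and 5.39%), and at 48 h 3 higher and 2 lower (13.6% and 13.4%). The median change of the 42 genes was -0.04, -0.13, -0.06 and -0.03 at 2, 8, 24 and 48 h.

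Ndufs1, the largest iron-sulphur subunit of the N module, was 5.49 to 5.93 (median 5.77) on the 11 arrays at 0 h and 5.66 to 5.96 and 5.48 to 6.12 at 2 and 8 h. It was 5.79 to 6.47 (median 5.95) at 24 h and 5.84 to 6.59 (median 6.17) at 48 h. The ranges at 0 and 48 h overlapped a little, and the changes from 0 h were 0.33 ± 0.09 at 24 h (adjusted p = 0.0148) and 0.46 ± 0.09 at 48 h (adjusted p = 2.21e-04). In sham, 1 Hz and iTBS cultures taken apart it was higher at 48 h by 0.38, 0.50 and 0.51. These and the values by arm below are differences of group means, without series. Sham arrays at 48 h held none of series B, unlike those at 0 h. In series A, B, C and D Ndufs1 was higher by 0.79, 0.70, 0.33 and 0.16, on few arrays each. The call at 24 h was lost without iTBS at 24 h replicate 1 (0.25, adjusted p = 0.0725) and without sham at 24 h replicate 1 (0.26, adjusted p = 0.0631). With slide as a fixed block the change was larger, 0.46, and not called (adjusted p = 0.0611).

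Ndufaf1 and Ndufaf6 rose as well. Ndufaf1 was -0.42 to 0.89 (median 0.19) at 0 h and 0.38 to 1.03 (median 0.64) at 48 h, with changes of 0.48 ± 0.11 at 24 h (adjusted p = 0.00252) and 0.43 ± 0.11 at 48 h (adjusted p = 0.00245). Its change at 48 h was 0.31, 0.43 and 0.58 in sham, 1 Hz and iTBS and 0.76, 0.54, 0.10 and 0.41 in series A to D. All arms and series had the same sign. Ndufaf6 was 3.26 to 4.30 (median 4.10) at 0 h and 3.89 to 5.02 (median 4.59) at 48 h, and rose by 0.48 ± 0.11 at 24 h (adjusted p = 0.00168) and 0.52 ± 0.10 at 48 h (adjusted p = 1.98e-04). The changes at 48 h were 0.84, 0.51 and 0.28 by arm and 0.87, 0.34, 0.33 and 0.54 by series. Series B had the lowest median of Ndufaf6 and was missing from sham at 48 h, so these values do not rank the arms.

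Ndufaf8 went the other way, from 6.54 to 7.56 (median 7.13) at 0 h to 5.87 to 7.39 (median 6.80) at 48 h, by -0.38 ± 0.10 (adjusted p = 0.00514). By series the change at 48 h was -0.16, -0.01, -0.52 and -0.70 in A to D. It lost the call with slide as a fixed block (-0.23, adjusted p = 0.334). Ndufb9, a distal subunit, was the other lower gene at 48 h (-0.24, adjusted p = 0.0451). The F values for time of the assembly factor Ndufaf5 and the core subunit Ndufv2 were among the smallest.

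**Figure D5:**
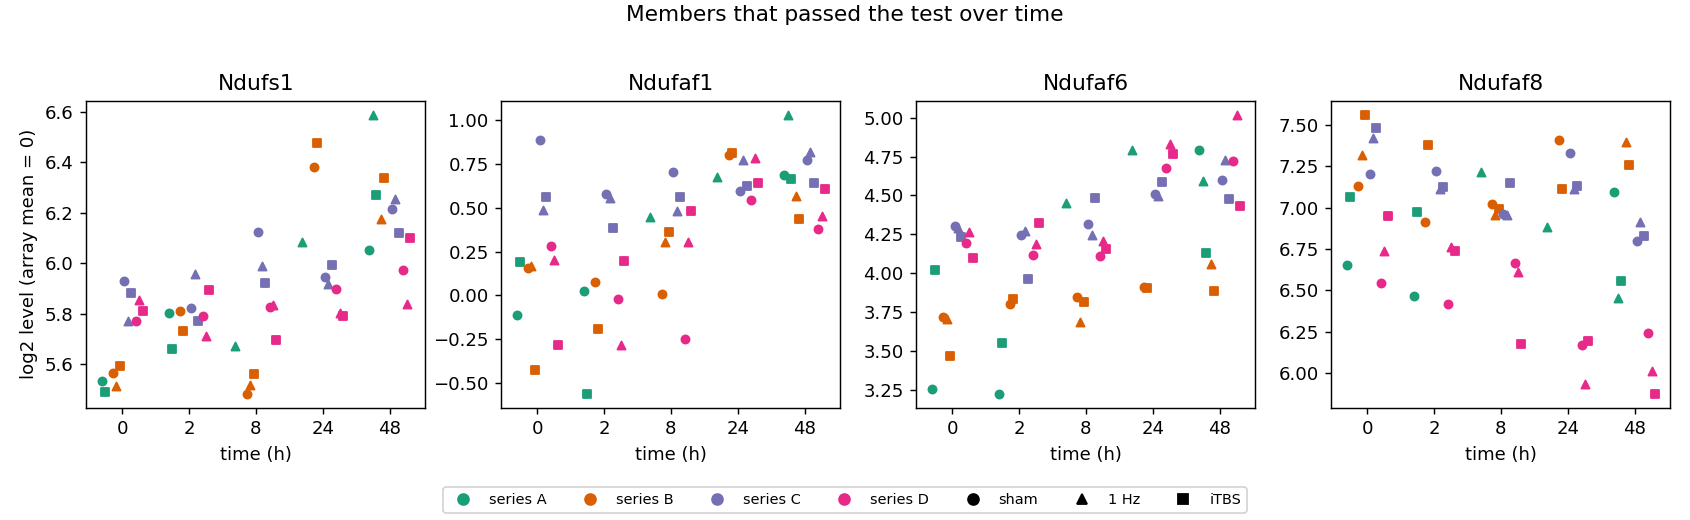
Level (log2, array mean 0) of Ndufs1, Ndufaf1, Ndufaf6 and Ndufaf8 on each array by hours after stimulation, with series as colour and arm as marker. The first 3 are higher at 24 and 48 h, with medians of 6.17, 0.64 and 4.59 at 48 h against 5.77, 0.19 and 4.10 at 0 h, and the median of Ndufaf8 is lower in series D than in the other series at every time.

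Other complex I assembly factors also rose: 5 of 10 were higher at 24 h and 5 of 10 at 48 h (medians 0.28 and 0.32), with 0 lower, among them Nubpl, which delivers iron-sulphur clusters (0.58 at 48 h), Dmac1 (0.44), Ecsit (0.38), Dmac2 (0.33) and Timmdc1 (0.31). Complexes III, IV and ATP synthase had 0 higher and 3 lower of 33 at 48 h. Of astrocyte markers 7 of 10 were higher at 48 h (median 0.59), with summed levels of 10.59 to 11.52 at 0 h and 10.87 to 12.59 at 48 h. Their part in the Nduf changes was not tested.

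The change at 24 and 48 h differed between series, though slides followed time within a series. A test of whether the change at 24 and 48 h against 0, 2 and 8 h differed between series, added after the series and time results had been seen, called 25 of 42 genes (59.5%) and 39.1% of all probes. The median member changed by 0.04 in A (25 of 42 up), 0.36 in B (39 of 42 up), -0.01 in C (19 of 42 up) and -0.17 in D (34 of 42 down). Relative to probes of the same brightness these were 0.09, 0.21, 0.03 and -0.07. The lowest adjusted p was that of Ndufb6, a distal subunit (2.27e-06): from early to late it went from 8.16 ± 0.19 (SD, n = 8) to 8.64 ± 0.19 (n = 4) in B and from 8.27 ± 0.19 (n = 9) to 7.88 ± 0.14 (n = 6) in D. In A and C it changed by -0.10 and -0.03. Ndufab1, the mitochondrial acyl carrier protein, likewise changed by 0.48 in B and -0.44 in D, and Ndufb11 by 0.51 and -0.35.

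Slides followed time within a series. The late arrays of A lay on slide 2, those of B on 4, those of C on 6 and 7 and those of D on 5, 6 and 7, while early arrays lay on slides 1 and 2 in A, 3 and 4 in B, 5 and 6 in C and 1 to 5 in D. In D only slide 5 held both early and late arrays, so slide and time can hardly be told apart there. With slide as a fixed block 5 of 42 genes were called (background 6.26%). Removing the brightness trend left 19 (background 38.3%), and leaving out both outlying arrays of slide 2 gave 30 (background 41.3%). Without those arrays the median member changed by 0.03 in A and -0.14 in D. Other lists changed too, not all alike. From early to late complexes III, IV and ATP synthase had medians of -0.15, 0.36, -0.04 and -0.22 in A, B, C and D. Cytosolic ribosomal proteins had -0.21, 0.30, 0.02 and -0.06, oligodendrocyte lineage markers 0.48, 0.72, -0.21 and -0.27 and neuronal markers -0.40, 0.24, 0.02 and -0.25. Several lists rose in D: other complex I assembly factors had 0.49, 0.37, 0.06 and 0.25. Astrocyte markers had 0.63, 0.77, 0.36 and 0.46 and microglia markers -0.55, 0.20, -0.02 and 0.73. The part of these was not tested.

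Ndufaf4, an early assembly factor, had the largest late change of any member in 1 series. In D it was 2.50 to 3.37 at 24 and 48 h and 3.70 to 4.41 before, without overlap, a difference of -1.16. Its dimmer probes changed there by -0.73 and -0.39. Without the outlying array of slide 2 in D it was -1.2. In A and B the brightest probe changed by 0.45 and -0.08, and the value in A was 0.03 without the outlying array, 1 Hz at 8 h replicate 1. The dimmer probes changed by -0.79 and -0.54 in A, or -0.63 and -0.49 without that array, and by -0.93 and -0.98 in B. The 3 probes thus did not give 1 time course for this gene, and only the brightest was counted above.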

How the data were processed

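Total RNA of 56 culture samples was labelled with Cy3 and hybridised to Agilent rat expression arrays, 1 array a sample. The deposited scanner files, read by Agilent Feature Extraction 12.0.3.1 with an rn4 grid, hold for each spot a background-corrected intensity that the software had not normalized between arrays. The authors also deposited a table of z-scores, a score within each array, which was used only to check the scale.

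Here the intensity of each probe was averaged as log2 over its spots without outlier spots. Each array was then standardised to mean 0 and SD 1, and 4.06, the median of the arrays' SDs, restored the log2 scale. The array that failed the grid check was left out, as were 420 probes without a value on every array and 9484 probes well above background on fewer than 3 arrays. Gene symbols came from RefSeq through the transcript accession of each probe. Linear models were fitted to all 35694 probes in R 4.3.3 with limma 3.58.1, with Benjamini-Hochberg adjustment over all of them and a threshold of 0.05. Protocols were compared with sham on the means of 16 groups, without series. Series and times were tested in a model of groups and series, except that times within sham cultures were tested in the model without series. The residual degrees of freedom were 39 and 36. The fit was tested on simulated data. Groups came from the titles, and series from the numbers in the descriptions.

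The members and lists were chosen with earlier results of these data known. By rule, values were given for nuclear core subunits, the member with the smallest p of each comparison with sham, and the 3 members with the largest and the 3 with the smallest F between series and over time. Others named were picked after their values were seen, and 1 gene is not reported by name here. None of the 13 other gene lists had a gene called against sham.

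Samples with the same replicate number deviated together with a median correlation of 0.18 (-0.46 to 0.78, 373 pairs) and samples of 1 series with 0.42 (-0.02 to 0.78, 360 pairs), so numbers were not taken as pairs. The labels do not say that samples came from separate preparations, so p-values measure only the spread between these samples, which may be technical. The number of arrays limits the precision. Alternatives were scaling to the 75th percentile, quantile normalization, normexp correction of the median spot signal with an offset of 50, removal of the brightness curve, no filter, the mean of a gene's probes, all 56 arrays, blocks of series, slide or replicate number, and leaving out each array.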

Additional observations from a re-analysis of the deposited data

Results flagged for a closer look

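In 168 sets of 4 arrays of 1 group, over 20 Nduf genes named by rule and the median of all 42, 10 held an array whose distance from the nearest other array was large for the range, where chance gives about 1 in 20, and 10 of 168 is near that. High arrays were Ndufa4 at 9.94 in iTBS at 0 h replicate 1 (the others 9.19 to 9.26), Ndufaf1 at 0.58 in sham at 2 h replicate 2 (-0.02 to 0.08), Ndufaf5 at 6.12 in iTBS at 2 h replicate 4 (5.59 to 5.65), Ndufs4 at 3.86 in 1 Hz at 48 h replicate 1 (1.41 to 1.70) and Ndufs4 at 2.57 in iTBS at 2 h replicate 4 (1.30 to 1.51). Low arrays were Ndufa4l2 at -1.22 in iTBS at 48 h replicate 3 (-0.75 to -0.69), Ndufs7 at 6.21 in iTBS at 2 h replicate 1 (6.57 to 6.61), Ndufv1 at 7.20 in 1 Hz at 48 h replicate 4 (7.83 to 7.89) and at 7.54 in iTBS at 0 h replicate 4 (7.86 to 7.92), and Ndufv3 at 6.39 in 1 Hz at 8 h replicate 2 (6.62 to 6.65). Of the 10, 4 were arrays of series D.

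The change at 24 and 48 h against the earlier times differed between series in 25 of the 42 genes by the interaction test, and in 39.1% of all probes. Among genes named here the adjusted p of limma was 3.62e-05 for Ndufb11, 2.41e-04 for Ndufv3, 3.92e-04 for Ndufs3, 7.81e-04 for Ndufs1, 8.09e-04 for Ndufv2, 0.00195 for Ndufaf8, 0.00377 for Ndufs8, 0.00769 for Ndufa5, 0.0449 for Ndufaf6 and 0.0472 for Ndufv1. With slide as a fixed block 5 of the 42 were called, and 6.26% of all probes.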

How the results depend on the processing

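The count of 0 Nduf genes against sham held in 896 of 897 counts from other settings. The exception was the fit that kept the array with the failed grid, all 56 arrays: 31 genes for 1 Hz at 2 h, with a median of -2.95 and Ndufaf6 at -1.82. Only 36 of the 42 genes remained in that fit, so its counts are out of 36. The share of all probes called in it is not given. That fit also gave 6 genes between series, 4 lower and 1 higher in D, 0 lower and 2 higher in C, 0 lower and 1 higher in A against B, 1 over time, 0 at 24 h and 0 at 48 h, a median of -0.88 at 2 h, and in series D 0.23 for Ndufs7, 0.22 for Ndufs8, 0.0030 for Ndufv1 and 0.0479 for Ndufv2. The median of 1 Hz at 24 h became -0.0397 with quantile normalization, -0.0394 with normexp, -0.0571 without the brightness trend, -0.0351 without the trend and with series as a block, and -0.0398 without the trend and with series at each time as a block. In C, lower genes were 4 without the brightness trend or with the mean of a gene's probes and 0 with slide as random or fixed block. Higher genes in C were 13 at the 75th percentile, 10 with quantile normalization, 11 with normexp, 8 without the trend and 14 with slide fixed. In A against B, lower genes were 9 with normexp, 10 without the trend, 8 with slide random and 0 with slide fixed, and higher ones 4 with quantile normalization or without the trend, 1 with slide random and 0 with slide fixed. Over time 9 genes were called at the 75th percentile, 10 without the trend (background 28.4%) and 7 with the mean of probes. At 48 h it was 8 with normexp or without the trend and 3 without series in the model. The other counts over time and at 48 h are given without the share of all probes. The share is likewise not given for genes lower in C, or for A against B with normexp, quantile normalization or slide random. Nor is it given for counts with 1 array left out or with the replicate block. The late change between series fell to 5 genes with slide fixed (background 6.26%). In series D, Ndufs1 was 0.0082 with quantile normalization, 0.0108 with normexp and 0.0129 without the trend, Ndufs7 was 0.00995 with quantile normalization and 0.00950 without the trend, and Ndufs3 was -0.0185 without 2 arrays of slide 2. Both fits that combine the trend with a series block, the fit without those arrays and the late change between series were chosen after seeing the data.

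Leaving out 1 array at a time moved the median of iTBS at 24 h from -0.38 (without sham replicate 3) to 0.00698 (without sham replicate 1), lower genes in A against B from 11 (without 1 Hz at 48 h replicate 2) to 19 and higher ones from 1 to 3, the count at 8 h from 0 to 1 (without 1 Hz at 8 h replicate 1), Ndufs4 with 1 Hz at 48 h from -0.0605 (without its replicate 1) to 0.75, and Ndufs3 in D from -0.0195 to 0.0438. The cause was not tested in any of these, except that slide as a fixed block leaves few arrays for A against B.

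With the replicate number as a block, 17 of 19 counts were equal. The F test over time gave 3 genes in place of 4, and 48 h gave 3 in place of 5, losing Ndufb9 and Ndufaf8 (-0.42, limma adjusted p = 0.0507). The samples share these numbers without being pairs.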
